A study of Mus musculus with 13 samples.

Results

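The kinetochore, centromere and spindle checkpoint genes described here are 39 genes of the 16382 in the deposited tables. They were chosen as a list of symbols, each mapped to 1 Ensembl gene. The rule uses no measured value, but the list was drawn up with earlier results of these data known. All 39 were found and all 39 passed the filter on low counts. RNA-seq was performed on wild-type C2C12 myotubes, the multinucleated cells that this mouse myoblast line forms when serum is lowered. On day 8 of differentiation the cultures received 10 μM palmitoylethanolamide (PEA), a fatty acid amide, or its vehicle DMSO (CON) in differentiation medium, and RNA was taken 24 h later. There were 6 CON and 6 PEA libraries from duplicate wells of repeated experiments. Wells of the same repeat cannot be told from the labels, so the tests treat the libraries as independent although there were fewer repeats than libraries. The p-values measure the spread between these libraries, part of which may be technical, and may be too small. Of the 13 labelled entries, a pair belongs to PEA replicate 2, sequenced again as a top-up, with only 1 set of values that was counted once.

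The kinetochore is the protein assembly that ties a chromosome to spindle microtubules. Chromatin that carries the histone variant CENP-A marks the centromere, inner kinetochore proteins bind this chromatin throughout the cell cycle, and outer kinetochore proteins that grip microtubules are added for mitosis. The spindle checkpoint is a set of kinases and adaptors that hold back anaphase until every kinetochore is attached, and several of these genes are transcribed mainly in cells that approach division. Myotube nuclei have left the cell cycle, whereas unfused mononucleated cells that remain in such cultures can still divide. In bulk RNA, fewer or more cells of a type and less or more RNA per cell cannot be told apart.

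Depth ranged from 12354845 to 50397444 estimated counts per library (median 18420605). Myotube genes were abundant, with embryonic myosin heavy chain (Myh3) at 12453 ± 3919 normalized counts in CON and 11358 ± 846 in PEA (SD, n = 6 each) and myogenin (Myog) at 12261 ± 1901 and 10714 ± 770. Of 15 myotube markers, 4 were downregulated in PEA and 0 upregulated, and their summed level ran from 107242 to 168651 normalized counts in CON and from 109026 to 130245 in PEA. Those that fell with the smallest p were Mb (log2 fold change -0.87, adjusted p = 0.00911), Tnnt3 (-0.33, adjusted p = 0.0184) and Mymx (-0.47, adjusted p = 0.0238). Of 9 tested myoblast and reserve cell markers, 3 were downregulated (log2 fold change of Id3 -0.40, Hes1 -0.38 and Cdh15 -0.25) and 0 upregulated, with sums over the list of 43214 to 58787 in CON and 45611 to 52208 in PEA. These sums mostly follow Des, which alone ran from 33168 to 47505 in CON and from 36145 to 42333 in PEA. Pax3, also on that list, had 0 to 3.22 normalized counts in CON and 0 to 2.53 in PEA and was not tested. Markers of other cell types numbered 8, of which 4 were in the tables, with sums of 515 to 741 in CON and 732 to 1000 in PEA, and Adgre1, Epcam, Sox10 and Adipoq were not analysed here. The immune cell marker Ptprc and the endothelial markers Pecam1 and Cdh5 had medians between 0 and 4.33 normalized counts in either group, whereas Tubb3, a tubulin of neurons, was upregulated with a log2 fold change of 0.48 ± 0.09 (SE, adjusted p = 0.00539). CON replicate 2 stood apart from the other CON libraries for the genes reported here. It was the highest CON library for 28 of the 39 members, and CON replicate 3 was the lowest for 21. Main results are therefore given with and without CON replicate 2.

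PEA upregulated 31 of the 39 members (edgeR quasi-likelihood test, adjusted p below 0.05 over 13142 genes tested) and downregulated 0. Since earlier results were known when the list was drawn up, this count is a description of the list. Of all genes tested, 11.0% were called in either direction and 6.31% were called higher. The 31 upregulated members rose by log2 fold changes of 0.38 to 1.08. The median over the 39 members was 0.66, a 1.58-fold increase, beside a median of 0.01 over all genes tested. A positive log2 fold change was found for 36 members, against 51.3% of all genes tested. The 8 members that did not pass were Cenpk, Cenpp, Cenpt, Cenpu, Mis12, Zw10, Bub3 and Mad1l1. Of these, 3 had an unadjusted p below 0.05, and 0 members were lower at that level. Such values were common over all genes. Cenps, which is no member, had an unadjusted edgeR p of 0.042 and ranked only 3374 by p among the 13142 genes tested. The summed level of the 39 members ran from 10363 to 14471 normalized counts in CON and from 14807 to 16896 in PEA. Of the 100 genes with the smallest p, 9 were members. DESeq2 also called 31 members higher and 0 lower. Every PEA library exceeded every CON library for 15 members, beside 2.53% of all genes tested. Without CON replicate 2, 32 members were upregulated, 28 did not overlap and the median was 0.78, and the shares over all genes also rose, to 9.32% called higher and 5.52% without overlap. The lowest count, 24 upregulated members, was found without PEA replicate 6, beside 3.72% of all genes called higher.

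**Figure D1:**
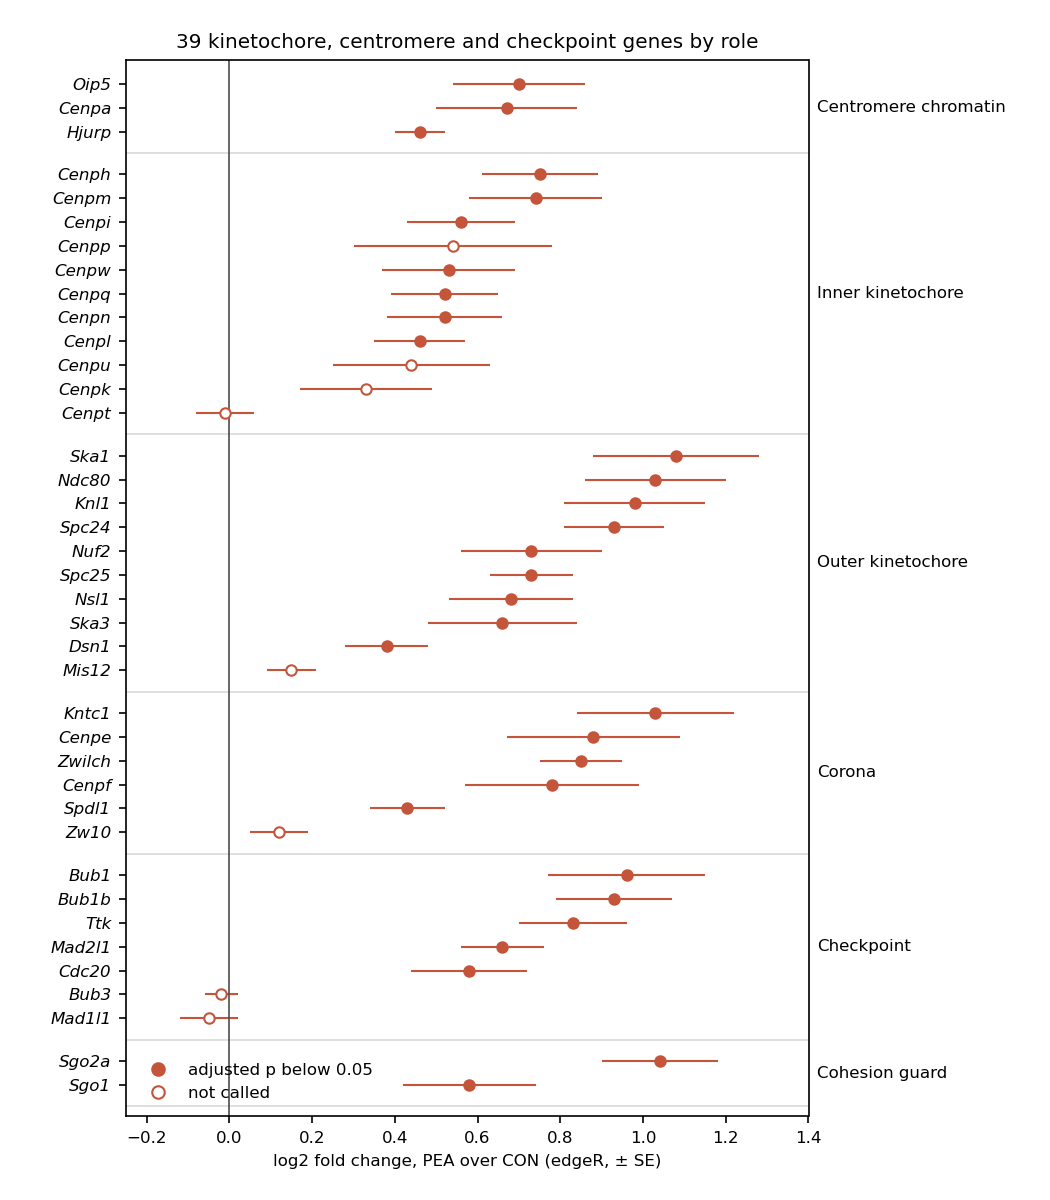
Log2 fold change of PEA over CON for each of the 39 members, grouped by role, with points as edgeR estimates and bars as 1 SE. Filled points passed an adjusted p of 0.05 and open points did not. The 31 filled points sit between 0.38 and 1.08, and the 8 open points lie in the inner and outer kinetochore, corona and checkpoint groups.

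Promoters of 35 members were present in a RefSeq table of windows that run from 250 bases before to 50 after each start, and Nsl1, Ska1, Spc24 and Zwilch were not in it. The windows were searched on both strands for the letters of 3 elements known from cell cycle promoters, with overlaps allowed. The cell cycle genes homology region (CHR, TTTGAA or TTCGAA) was found in 60% of the 35 members and in 21.7% of the 27025 genes of the table. The NF-Y box (CCAAT) was found in 71.4% of members and 41.1% of all genes, and both elements together in 48.6% and 9.65%. Letters of an E2F site (TTTCCCGC, TTTCGCGC, TTTGCCGC or TTTGGCGC) were found in 8.57% of members, namely Cenpl, Cenpm and Dsn1, and in 2.6% of all genes. The CHR letters were present in 19 of the 27 upregulated members with a window and in 2 of the 8 members not called, Bub3 and Zw10. These are letter matches with no test, and they do not show that a factor binds.

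The following stretches end at or before the start given in the RefSeq table and are written 5′ to 3′ on the strand of the gene, in lower case with CHR, NF-Y and E2F letters in capitals. They are shown because they set members of matched roles side by side, Kntc1 against its partner Zw10 and the checkpoint genes Bub1, Bub1b and Mad2l1 against each other, with inner kinetochore genes Cenpm and Cenpw and outer kinetochore gene Spc25. The sequences are those of the RefSeq table (GRCm38.p6), and each matched GRCm39 exactly once near its gene, at the position given. In the GRCm39 annotation all of them except that of Mad2l1 run into exons of protein-coding genes, by 8 to 30 bases, and these exons hold all 10 marked letters of Kntc1, 8 of 10 of Cenpw and 8 of 24 of Cenpm.
Kntc1, chr5:123887669-123887786, plus strand: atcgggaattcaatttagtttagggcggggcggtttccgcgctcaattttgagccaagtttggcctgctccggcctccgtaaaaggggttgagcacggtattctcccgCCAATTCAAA
Cenpw, chr10:30076537-30076598, minus strand: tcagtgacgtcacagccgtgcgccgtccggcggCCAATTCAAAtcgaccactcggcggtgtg
Cenpm, chr15:82128601-82128715, minus strand: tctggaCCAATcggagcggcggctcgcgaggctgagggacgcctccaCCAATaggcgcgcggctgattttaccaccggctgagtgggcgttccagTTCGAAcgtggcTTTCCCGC
Bub1b, chr2:118428492-118428691, plus strand: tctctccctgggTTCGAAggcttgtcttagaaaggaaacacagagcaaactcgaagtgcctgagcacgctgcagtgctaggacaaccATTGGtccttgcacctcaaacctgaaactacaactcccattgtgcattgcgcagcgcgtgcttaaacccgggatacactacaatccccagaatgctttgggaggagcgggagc
Bub1, chr2:127673780-127673899, minus strand: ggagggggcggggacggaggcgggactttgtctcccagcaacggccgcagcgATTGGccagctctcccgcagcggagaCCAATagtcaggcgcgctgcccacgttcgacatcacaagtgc
Spc25, chr2:69036558-69036677, minus strand: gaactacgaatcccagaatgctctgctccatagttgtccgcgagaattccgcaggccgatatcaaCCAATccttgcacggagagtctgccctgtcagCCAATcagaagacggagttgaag
Mad2l1, chr6:66512085-66512204, plus strand: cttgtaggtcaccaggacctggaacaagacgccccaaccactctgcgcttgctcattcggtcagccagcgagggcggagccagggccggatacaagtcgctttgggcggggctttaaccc
Zw10, chr9:48966701-48966821, plus strand: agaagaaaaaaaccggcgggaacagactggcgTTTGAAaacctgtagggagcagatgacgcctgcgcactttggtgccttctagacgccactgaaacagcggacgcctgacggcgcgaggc

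In Kntc1 and Cenpw, both upregulated, the NF-Y box and the CHR letters shared 1 base. Cenpm held a pair of NF-Y boxes, a CHR and an E2F match. Mad2l1, also upregulated, had no match to any of the 3 in its whole window, while Zw10, which was not called, had a CHR match, in a stretch that also lies within a noncoding RNA gene on the other strand. Bub1, Bub1b and Spc25 each had a CHR match after the RefSeq start, outside the stretch shown.

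The centromere chromatin genes comprised Cenpa, which encodes the histone variant itself, Hjurp, its chaperone, and Oip5, a subunit of the Mis18 complex that licenses the deposition of CENP-A. All 3 were upregulated, with a median log2 fold change of 0.67. Hjurp had 962, 1071 and 1242 normalized counts as the lowest, median and highest CON library and 1391, 1496 and 1646 in PEA. Its groups did not overlap, and the increase was small but even, with a log2 fold change of 0.46 ± 0.06 (SE, adjusted p = 4.7e-04). Hjurp lies at chr1:88186586-88205405 (GRCm39, minus strand). Oip5 ran from 47.2 over 53.7 to 77.3 in CON and from 79.9 over 93.4 to 118 in PEA, again without overlap (0.70 ± 0.16, adjusted p = 0.0136). Cenpa ran from 156 over 252 to 420 in CON and from 355 over 401 to 460 in PEA (0.67 ± 0.17, adjusted p = 0.0217). The highest CON value, that of replicate 2, lay within the PEA range. The Cenpa call was lost without CON replicate 6, PEA replicate 5 or PEA replicate 6, with adjusted p up to 0.0561. Oip5 shares 14.7% of the bases of its main transcript with Nusap1 on the opposite strand, which was itself upregulated by 0.91 (adjusted p = 9.4e-04), and whether strand was used in counting is not stated.

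Of the 11 inner kinetochore members, 7 were upregulated, with a median log2 fold change of 0.52, beside 6.31% of all genes tested called higher. The count was 5 after thinning to the smallest total, where 5.23% of all genes were called higher. Over single libraries left out it was lowest, at 4, without PEA replicate 6, where 3.72% of all genes were called higher. It was highest, at 8, without CON replicate 2, where that share was 9.32%. Within the group of Cenph, Cenpi, Cenpk and Cenpm, which bind each other at the base of the kinetochore, 3 of the 4 passed. Cenph ran from 77.8 over 107 to 150 normalized counts in CON and from 167 over 184 to 202 in PEA (0.75 ± 0.14, adjusted p = 0.00352), and every PEA library was above every CON library. Cenpm ran from 79.3 over 103 to 149 in CON and from 134 over 185 to 230 in PEA (0.74 ± 0.16, adjusted p = 0.00928). Cenpi ran from 127 over 140 to 181 in CON and from 177 over 208 to 279 in PEA (0.56 ± 0.13, adjusted p = 0.0149). For Cenpm and Cenpi, 4 and 5 PEA libraries exceeded the highest CON library. Cenpk ran from 57.6 over 84.5 to 118 in CON and from 91.8 over 108 to 134 in PEA, and the difference of 0.33 ± 0.16 did not pass (adjusted p = 0.193).

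Cenpl and Cenpn, a pair that contacts the CENP-A nucleosome, both rose. Cenpl ran from 139 over 157 to 175 in CON and from 170 over 220 to 258 in PEA (0.46 ± 0.11, adjusted p = 0.0125). Of the CENP-O group, Cenpq passed (161, 180 and 261 in CON, 200, 291 and 327 in PEA, 0.52 ± 0.13, adjusted p = 0.019), whereas Cenpp (31.6, 45.8 and 82.6 against 50, 69.8 and 96.7, 0.54 ± 0.24, adjusted p = 0.153) and Cenpu (42.9, 83.9 and 104 against 94, 96.8 and 146, 0.44 ± 0.19, adjusted p = 0.139) did not. The estimates for Cenpp and Cenpu were of the size of those that passed, with wider errors. Cenpp shares 24.8% of its transcript with Ippk and Cenpu 36.5% with Primpol, on the opposite strand. Ippk had a mean of 342 normalized counts in CON and Primpol of 119. Their log2 fold changes of 0.02 and 0.20 did not pass. Without CON replicate 2, Cenpp passed at a log2 fold change of 0.75.

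Cenpt and Cenpw encode histone fold partners, and their values were unlike. Cenpt ran from 418 over 470 to 511 normalized counts in CON and from 413 over 459 to 491 in PEA, a difference of -0.01 ± 0.07 (adjusted p = 0.967). Cenpw ran from 50.8 over 80.9 to 96.6 in CON and from 98.9 over 109 to 143 in PEA, and its groups did not overlap. Its adjusted p of 0.0395 was the highest among the members called, and the call was lost in 8 of the 12 fits that left out a library, those without CON replicate 3, 4, 5 or 6 or PEA replicate 1, 2, 5 or 6. The calls of Cenpn (without PEA replicate 5 or 6) and Cenpq (without PEA replicate 6) were lost as well.

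In the outer kinetochore 9 of 10 members were upregulated, with a median log2 fold change of 0.73. All 4 subunits of the Ndc80 complex, the rod that binds microtubules, were among them. Ndc80 ran from 113 over 191 to 304 normalized counts in CON and from 331 over 380 to 477 in PEA, a 2.04-fold increase (log2 fold change 1.03 ± 0.17, adjusted p = 0.0016). Spc24 ran from 140 over 155 to 232 in CON and from 265 over 323 to 350 in PEA (0.93 ± 0.12, adjusted p = 4.5e-04). Spc25 ran from 247 over 320 to 379 in CON and from 442 over 535 to 594 in PEA (0.73 ± 0.10, adjusted p = 4.7e-04). For these 3 subunits the groups did not overlap, whereas for Nuf2, the partner of Ndc80, the highest CON library reached 483 and lay within the PEA range of 377 to 581. Spc24, at chr9:21666727-21671791 on the minus strand, ranked 11 by p among the 13142 genes tested.

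Knl1, the scaffold on which checkpoint proteins gather, ran from 49.4 over 74.1 to 130 in CON and from 135 over 156 to 169 in PEA without overlap (0.98 ± 0.17, adjusted p = 0.00324). Ska1, of the complex that tracks microtubule ends, had the largest estimate of the 39 members, 1.08 ± 0.20 (adjusted p = 0.0044), from 38.6, 45.9 and 91.2 in CON to 84.3, 122 and 132 in PEA, with CON replicate 2 above the lowest PEA library. Ska3 rose by 0.66, although 57.9% of its transcript overlaps Sap18 and Mrpl57 on the opposite strand. Sap18 had a log2 fold change of -0.17 and Mrpl57 of -0.01, neither of which passed, and the Ska3 call was lost without CON replicate 5 or 6 or PEA replicate 4, 5 or 6. Spc25 shares 47.4% of its transcript with Nostrin, which had a mean of 2.87 normalized counts in CON and 1.84 in PEA.

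The Mis12 complex joins the inner and the outer kinetochore. Mis12 itself ran from 915 over 964 to 1082 in CON and from 989 over 1059 to 1201 in PEA, a difference of 0.15 ± 0.06 that did not pass (adjusted p = 0.0955). Its partners Dsn1 (0.38 ± 0.10, adjusted p = 0.0256) and Nsl1 (0.68 ± 0.15, adjusted p = 0.01) were upregulated, and the remaining subunit Pmf1, which is no member, was not called (0.09 ± 0.08, adjusted p = 0.498). The Dsn1 call was lost without CON replicate 1 or 6 or PEA replicate 1 or 2.

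**Figure D2:**
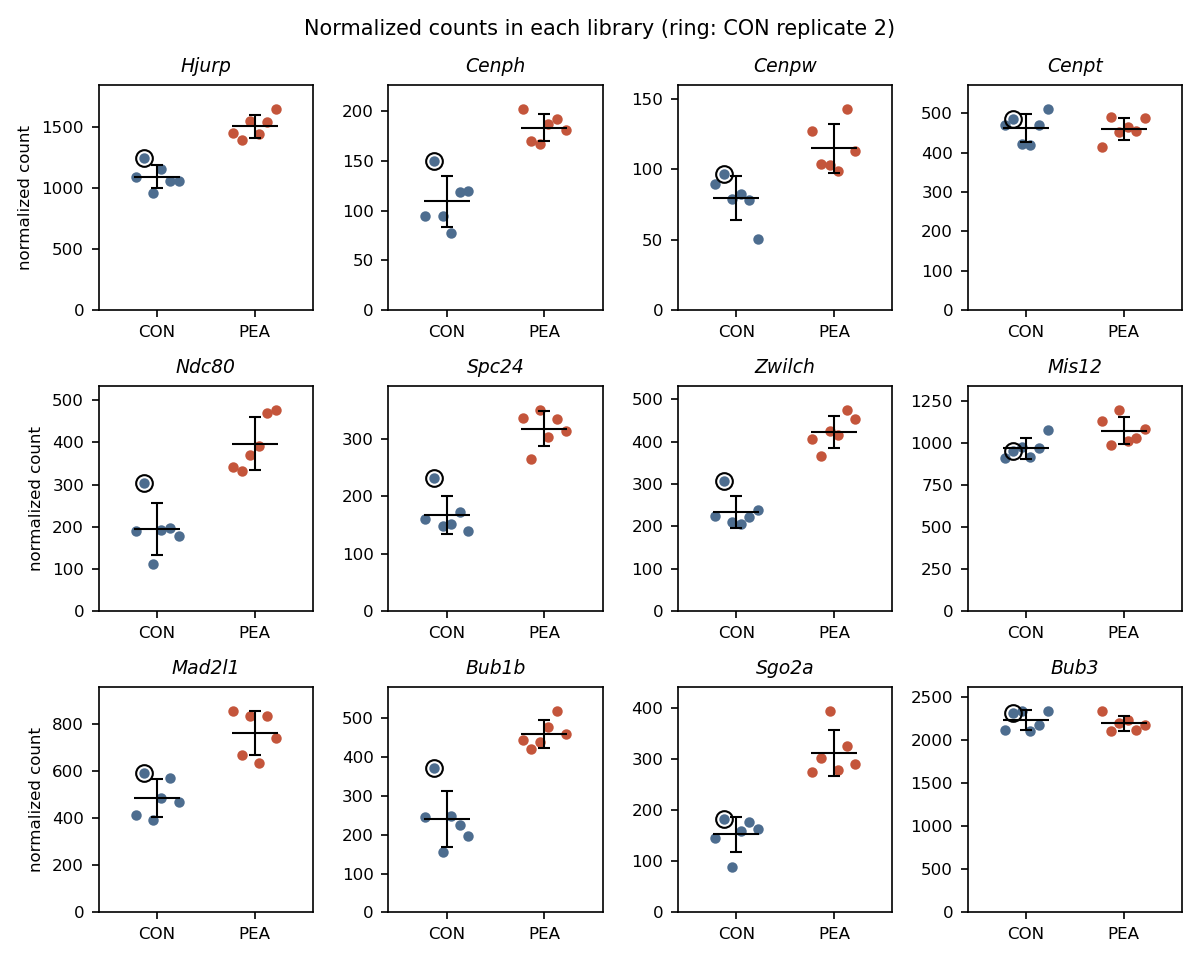
Normalized counts of 12 members in each of the 6 CON and 6 PEA libraries, on linear axes from 0, with the mean and SD as black bars and CON replicate 2 ringed. Spc24, Zwilch, Ndc80 and Sgo2a show groups that do not overlap, while Cenpt, Mis12 and Bub3 overlap. Upregulated members whose groups overlap, such as Cenpa, Nuf2 and Cdc20, are not drawn.

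The corona is the outermost layer of the kinetochore, where motors and the complex of Zw10, Zwilch and Kntc1 (the ROD subunit) assemble. Of its 6 members, 5 were upregulated, with the highest median of the roles with 3 or more members, 0.82. Zwilch, at chr9:64044374-64080386 on the minus strand, ran from 206 over 223 to 307 normalized counts in CON and from 367 over 421 to 475 in PEA (0.85 ± 0.10, adjusted p = 2.4e-04), without overlap. It ranked 6 by p among all genes tested. Kntc1 ran from 54.5 over 101 to 152 in CON and from 159 over 203 to 246 in PEA (1.03 ± 0.19, adjusted p = 0.00384), also without overlap. Zw10 ran from 436 over 464 to 542 in CON and from 495 over 511 to 562 in PEA, and its difference of 0.12 ± 0.07 did not pass (adjusted p = 0.297). Spdl1 (Spindly), the adaptor that loads dynein onto the complex, ran from 169 over 186 to 198 in CON and from 217 over 250 to 275 in PEA (0.43 ± 0.09, adjusted p = 0.00743) without overlap. The kinesin Cenpe and the large corona protein Cenpf rose by 0.88 and 0.78, and their CON ranges of 109 to 429 and 89.5 to 378 were the widest of the corona genes. The Cenpf call was lost without CON replicate 6, PEA replicate 5 or PEA replicate 6.

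Among the 7 checkpoint members, 5 rose and 2 showed no difference that passed, with a median log2 fold change of 0.66. The kinases Bub1 and Ttk (Mps1) start the signal at unattached kinetochores, and Bub1b encodes the pseudokinase BubR1. Bub1b, at chr2:118428684-118472076 on the plus strand, ran from 157 over 236 to 373 normalized counts in CON and from 420 over 453 to 520 in PEA (0.93 ± 0.14, adjusted p = 0.00113). Bub1 ran from 92.6 over 228 to 338 in CON and from 368 over 432 to 512 in PEA (0.96 ± 0.19, adjusted p = 0.00516). Neither gene had overlapping groups. Ttk ran from 118 over 145 to 210 in CON and from 210 over 271 to 298 in PEA (0.83 ± 0.13, adjusted p = 0.0015), the highest CON and lowest PEA values being about equal.

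Mad2l1 (MAD2), the protein that binds and inhibits Cdc20, ran from 394 over 476 to 594 in CON and from 636 over 788 to 857 in PEA without overlap (0.66 ± 0.10, adjusted p = 0.00125). Cdc20, which activates the ubiquitin ligase APC/C, ran from 397 over 559 to 936 in CON and from 740 over 913 to 984 in PEA (0.58 ± 0.14, adjusted p = 0.0182), and only 2 of the 6 PEA libraries lay above CON replicate 2. A second gene in the tables, Gm7856, resembles Cdc20 over 81.6% of its transcript at 93.7% identity, but was listed at only 10.8 to 31.7 normalized counts over the CON libraries and 13 to 28.5 over PEA. Bub3, the adaptor that carries Bub1 and Bub1b, ran from 2111 over 2252 to 2345 in CON and from 2108 over 2192 to 2343 in PEA (-0.02 ± 0.04, adjusted p = 0.776). Mad1l1 (MAD1), the kinetochore receptor of MAD2, ran from 641 over 777 to 869 in CON and from 664 over 707 to 806 in PEA (-0.05 ± 0.07, adjusted p = 0.715). Bub3 also serves outside mitosis, and both genes overlapped almost completely between the groups.

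The shugoshins Sgo1 and Sgo2a guard cohesin at the centromere until anaphase. Sgo2a ran from 88.8 over 161 to 182 normalized counts in CON and from 275 over 295 to 394 in PEA, a 2.05-fold increase without overlap (1.04 ± 0.14, adjusted p = 5.3e-04). Its transcript shares 46.1% of its bases with Kctd18 on the opposite strand, which had a log2 fold change of 0.20 (adjusted p = 0.156). Sgo1 ran from 102 over 155 to 226 in CON and from 196 over 227 to 264 in PEA (0.58 ± 0.16, adjusted p = 0.0272). The Sgo1 call was lost without CON replicate 1 or 6 or PEA replicate 3 or 6.

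Levels were also compared per kilobase of the main transcript. In CON, the highest values were those of Cdc20 (319 ± 98), Mis12 (317 ± 19.8) and Bub3 (308 ± 15.2 normalized counts per kilobase), which lay within 1 SD of each other, followed by Mad1l1 (280 ± 30.6) and Mad2l1 (270 ± 44.5). The lowest was Knl1, with 9.98 ± 3.46. The spread among CON libraries differed between members, from a coefficient of variation of 4.95% (Bub3) to 44.4% (Cenpe). Of the 8 members not called, 5 had a CON coefficient of variation under 12%, as had 3 of the 31 upregulated members.

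The roles were then set against each other within each library, as the mean over members of log2 CPM centred on the mean of each gene over libraries. Over all 39 members this mean ran from -0.67 in CON replicate 3 to 0.11 in CON replicate 2, with a CON median of -0.35, and from 0.18 to 0.40 in PEA. For the outer kinetochore it ran from -0.70 to 0.14 in CON and from 0.22 to 0.46 in PEA. For the inner kinetochore the corresponding ranges were -0.47 to 0.09 and 0.11 to 0.37. In all 6 roles CON replicate 2 was the only CON library above 0 and lay below the lowest PEA library. The outer mean minus the inner mean ran from -0.26 to 0.05 in CON, with a median of -0.15, and from 0.04 to 0.21 in PEA, with a median of 0.11. The groups overlapped slightly, with CON replicate 2 just above the lowest PEA library. The checkpoint mean minus the inner mean ran from -0.21 to 0.05 in CON and from -0.06 to 0.14 in PEA, with wide overlap. The outer mean minus the checkpoint mean ran from -0.20 to 0.04 in CON and from -0.04 to 0.20 in PEA, also with overlap. These differences rest on lists chosen with results of the data known and were given no test.

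**Figure D3:**
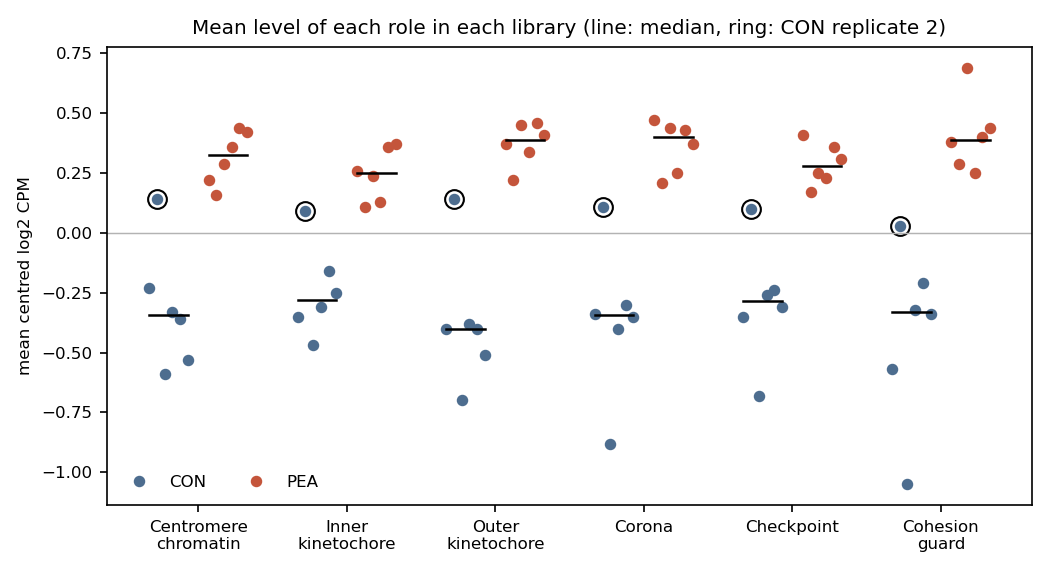
Mean centred log2 CPM of the members of each role in each library, with a black line at the group median and CON replicate 2 ringed. In every role the PEA libraries lie above 0, and among CON libraries only replicate 2 does.

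Ratios of 14 partner pairs were taken within each library. The pairs, like the members, were chosen with earlier results of these data known, so the ratios are a description without a test. The ratio of Bub1 to Bub3 was 0.0999 ± 0.0343 in CON and 0.196 ± 0.018 in PEA (SD, n = 6 each), a log2 difference of 1.07 without overlap. Bub1b to Bub3 was 0.108 ± 0.0323 in CON and 0.21 ± 0.0194 in PEA, and Zwilch to Zw10 was 0.499 ± 0.111 and 0.823 ± 0.0924, both without overlap. These 3 pairs were the ones whose groups did not overlap. Kntc1 to Zw10 was 0.218 ± 0.0891 in CON and 0.398 ± 0.0631 in PEA, Mad2l1 to Mad1l1 was 0.657 ± 0.153 and 1.05 ± 0.165, and Ndc80 to Mis12 was 0.204 ± 0.0672 and 0.371 ± 0.0664. Each of these 6 pairs sets an upregulated member against one that was not called, so the ratios restate those calls.

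Among pairs in which both members rose, the ratio of Sgo2a to Sgo1 was 1 ± 0.145 in CON and 1.37 ± 0.187 in PEA (log2 difference 0.45), with all 6 PEA libraries above the CON median. The ratio of Nuf2 to Ndc80 was 1.49 ± 0.154 in CON and 1.23 ± 0.0962 in PEA (log2 difference -0.28), with 0 of the 6 PEA libraries above the CON median. Cdc20 to its inhibitor Mad2l1 was 1.2 ± 0.213 in CON and 1.16 ± 0.0737 in PEA. For Spc25 to Spc24, Ska3 to Ska1 and Cenpa to Hjurp the log2 differences lay between -0.41 and 0.26, with overlap in each. Dsn1 to Mis12 (log2 difference 0.23) and Cenpk to Cenph (-0.42) again paired an upregulated member with one not called, Mis12 and Cenpk. Their groups overlapped as well.

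**Figure D4:**
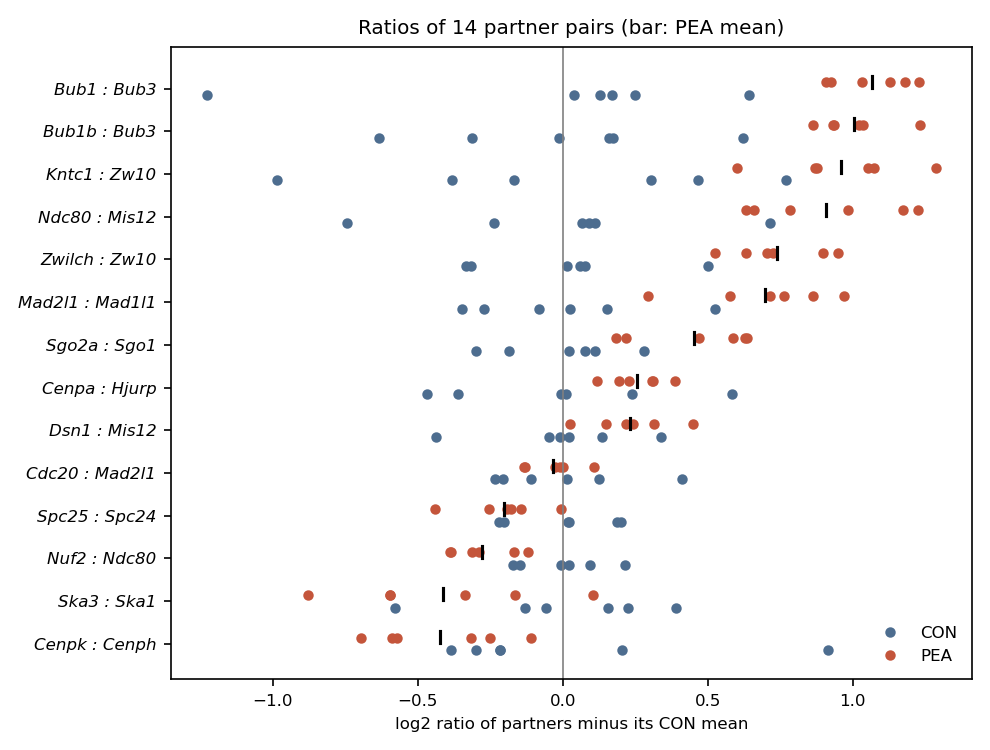
Log2 ratio of normalized counts (pseudocount 1) for 14 partner pairs in each library, shifted so that the CON mean is 0, with a bar at the PEA mean. The ratios over Bub3 and of Zwilch to Zw10 separate the groups, and Cdc20 to Mad2l1 does not.

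Of 57 further genes of the same machinery that are not members, 17 were upregulated and 1 downregulated, with a median log2 fold change of 0.07, beside 6.31% of all genes tested called higher and 4.74% called lower. Leaving out PEA replicate 6 gave 11 upregulated genes, and leaving out CON replicate 2 gave 20. All 4 genes of the chromosomal passenger complex, the Aurora B kinase module that corrects attachments, were upregulated. Aurkb, the kinase, went from 309 ± 79.6 to 562 ± 76.6 normalized counts (SD, n = 6 each, log2 fold change 0.87, edgeR adjusted p = 0.00185), Incenp, the scaffold, from 582 ± 120 to 938 ± 95.5 (0.69, edgeR adjusted p = 0.00145), and Birc5 (survivin) from 444 ± 134 to 698 ± 63.7 (0.66, edgeR adjusted p = 0.0111). Of 6 genes that act at anaphase or are destroyed in mitosis, 5 rose. The separase gene Espl1 went from 146 ± 49.6 to 314 ± 34.1 (1.10, edgeR adjusted p = 0.0016), cyclin A2 (Ccna2) from 667 ± 209 to 1281 ± 109 (0.94, edgeR adjusted p = 0.00115) and cyclin B2 (Ccnb2) from 235 ± 80.8 to 409 ± 66 (0.81, edgeR adjusted p = 0.0099). The remaining gene, the cohesin subunit Rad21, had a log2 fold change of 0.07 (adjusted p = 0.255).

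For the APC/C, the ligase that the checkpoint restrains, with its regulators, 1 of 18 genes was called, the inhibitor Fbxo5 (194 ± 40.7 to 343 ± 59, 0.84, edgeR adjusted p = 0.0016), a count near the share over all genes, and the median was 0.01. Among other centromere and inner kinetochore genes, Cenpo (0.39, adjusted p = 0.0198), a partner of Cenpp, Cenpq and Cenpu, was upregulated. Of 12 other outer kinetochore and corona genes, the microtubule depolymerase Kif2c (0.97, adjusted p = 0.00223), the kinesin Kif18a (0.55, adjusted p = 0.037) and Ska2 (0.27, adjusted p = 0.0436) were upregulated. Of 9 other checkpoint genes, the kinases Plk1 (0.78, adjusted p = 0.00694) and Haspin (0.60, adjusted p = 0.0425) rose, and the phosphatase Ppp1cc, which silences the checkpoint, fell by 0.17 on the log2 scale (edgeR adjusted p = 0.0439). The Ppp1cc call was lost in 10 of 20 alternatives, namely after thinning, without a filter on low counts, and without CON replicate 3, 4, 5 or 6 or PEA replicate 2, 4, 5 or 6.

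**Figure D5:**
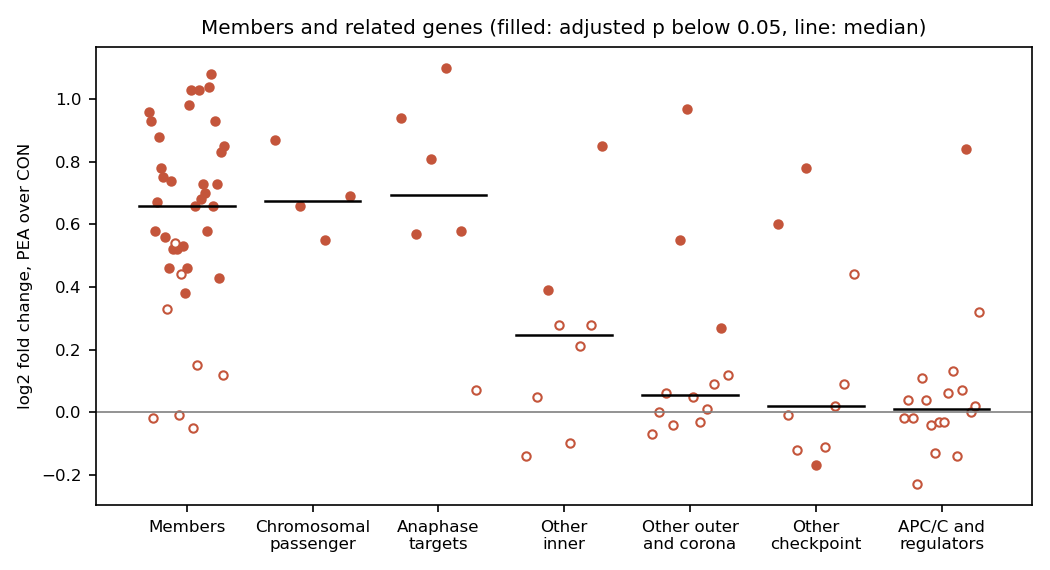
Log2 fold change of PEA over CON for the 39 members and 57 related genes by group, with filled points at an adjusted p below 0.05 and a line at each median. The medians are 0.67 for the passenger complex, 0.69 for the anaphase genes, 0.66 for the members and 0.01 for the APC/C genes.

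Most markers of dividing cells rose in PEA, as most members did. Of 9 such genes, 7 were upregulated, and their summed level ran from 5216 to 7640 normalized counts in CON and from 8238 to 9570 in PEA. Kif11, a spindle motor, had a log2 fold change of 0.95 (adjusted p = 8.2e-04), Top2a, a topoisomerase, of 0.95 (adjusted p = 9.4e-04) and Tpx2, a spindle assembly factor, of 0.74 (adjusted p = 0.00425). Pcna (0.18, adjusted p = 0.0636) and Lin9 (0.17, adjusted p = 0.257) did not pass. The mean of these markers was lowest in CON replicate 3, at -0.70, and highest among CON libraries in replicate 2, at 0.11. These were the same libraries as for the members, but this did not hold for every marker. CON replicate 3 was the highest CON library for Pcna (2383 normalized counts), E2f1 (786) and Lin9 (217). For E2f1, CON replicate 2 was the lowest (561). The part of the rise in these markers, and of the markers that fell in PEA, in the values of the members was not tested.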

How the data were processed

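The authors trimmed reads of low quality, aligned them to mm39 with STAR (version given as 4.4.1d) and quantified Ensembl genes in Partek Flow. They deposited an unnormalized estimated count per gene and, as a second table, a signal, here called normalized counts, which is that count divided by 1 DESeq2 median-ratio factor per library. Fractional values made up 45.0% of counts above 0 (tolerance 0.001). The smallest total of a gene was 10 counts. The tables end at a given identifier, and 2240 of 21770 protein-coding genes of the annotation (GENCODE, GRCm39) with higher identifiers were not used here. The report gives the range of depth. CON replicate 1 was the deepest library, and deeper libraries give smaller counting errors.

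Estimated counts were rounded and tested with edgeR 4.0.16 (quasi-likelihood, TMM factors 0.988 to 1.02, filterByExpr, R 4.3.3), with Benjamini-Hochberg adjustment over 13142 genes and a threshold of 0.05. The test was tested on simulated data before use. DESeq2 1.42.0, limma 3.58.1 (voom, and log2 of the deposited normalized counts with a pseudocount of 1), other filters and size factors, thinned libraries, a replicate block and each library left out were alternatives. Log2 CPM used a prior count of 2. Log2 ratios of partners used normalized counts with a pseudocount of 1. An exact permutation test of these ratios was planned, and its p-values are not given because the pairs were chosen with results known. Promoters were those of the RefSeq table.

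The members and lists were chosen with earlier results of these data known. Values are given in full for the called members with the smallest p in each role (up to 5 for inner kinetochore, outer kinetochore and checkpoint, up to 3 elsewhere), for members not called, and for up to 3 related genes or markers per group, and the remaining members by range and count. Rad21, Pcna, Lin9, E2f1, Des, Cenps, Pmf1 and the genes that overlap a member were named after their values were seen. A result for 1 related gene is not reported here.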

Additional observations from a re-analysis of the deposited data

Results flagged for a closer look

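In 78 groups of 6 libraries (39 members in CON and in PEA), 4 held a library whose gap to its nearest neighbour passed Dixon's 95% limit, and chance flags about 1 in 20 groups, here about 3.9. CON replicate 2 was the library in 3 of them. Spc24 had 232 normalized counts there and 140 to 173 in the other CON libraries, Zwilch had 307 against 206 to 239, and Cdc20 had 936 against 397 to 585. In PEA, Cenpu had 146 normalized counts in replicate 5 and 94 to 111 in the others.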

How the results depend on the processing

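With all libraries, 28 members were upregulated after thinning to the smallest total and 31 under each of the other 7 alternatives, with 0 downregulated in each and medians of 0.65 to 0.68. Over all genes with an adjusted p, the share called higher was 5.23% after thinning and 4.78% (no filter on low counts) to 7.48% (DESeq2) in the others. Thinning lost the calls of Cenpn, Cenpw and Sgo1. With each library left out, 24 (without PEA replicate 6) to 32 members were upregulated, 0 downregulated, and the median ran from 0.59 to 0.78. The number of members without overlap ran from 15 to 28, the latter without CON replicate 2, and was 15 in TMM-scaled CPM. Over all genes the share without overlap ran from 2.72% to 5.52% and the share called higher from 3.72% to 9.32% with a library left out, both highest without CON replicate 2. Of the 31 upregulated members, 23 kept the call in every alternative and 8 lost it in at least 1. Related genes upregulated ran from 11 (without PEA replicate 6) to 20 and downregulated from 0 to 3 with a library left out, and 2 were downregulated in DESeq2, 2 in limma-voom, 0 after thinning and 0 without a filter on low counts. Fits with a library left out tested and called different numbers of genes, and the cause was not tested. In windows from 100 bases before the start to 50 after, the CHR was found in 54.3% of members and 9.87% of all promoters, the NF-Y box in 62.9% and 26.3%, and the E2F letters in 5.71% and 1.45%. Replicate numbers did not pair the libraries (correlations of deviations -0.08 to 0.06), and with the replicate number as a block 31 members were upregulated with a median of 0.68. Depth limits the members with fewest counts, 30 in the lowest library for Oip5, and the errors cover counting and the spread between libraries only.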
